A study of Mus musculus with 18 samples.

Results

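The 978 regions described here are closed stretches of chromatin at which GATA6 arrived early, SOX17 followed, and pluripotency transcription factors (PTFs) had been bound before differentiation began. They were selected from the 42403 GATA6 binding regions of the deposited table by 4 measured classes, namely the GATA6 class Early&Constant (Early below), PTF peaks from d0, SOX17 peaks present, and accessibility closed at d0. They made up 2.31% of all regions, 8.24% of the 11875 Early regions, 12.7% of the 7705 closed Early regions and 33.7% of the 2901 Early regions with both SOX17 and PTFs from d0. The GATA6 time course, the SOX17 peaks, the PTF peaks at d0 and the ATAC-seq signal at d0 thus chose the members, and these values are described below without any test.

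GATA6 is a zinc finger transcription factor that directs cells into the primitive endoderm (PrE), the extra-embryonic lineage of the early embryo that lines the yolk sac. GATA factors are called pioneers because they can recognise their motif on DNA that is wrapped in nucleosomes. OCT4, SOX2 and ESRRB are the PTFs, which hold embryonic stem (ES) cells in their undifferentiated state, with OCT4 and SOX2 sharing a composite motif, and SOX17 is a SOX factor of the endoderm that recognises a motif close to that of SOX2.

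The cells were KH2 mouse ES cells of C57BL/6 x 129/Sv background with a Gata6 expression cassette that doxycycline (Dox) switches on, grown with serum and LIF on mouse fibroblast feeders. Every cell, untreated d0 cells included, carried the cassette, and the line goes back to picked, antibiotic-resistant clones. Dox was given at 1 µg/mL for 8, 16, 24, 48 or 96 h, untreated cells stand as 0 h (d0), and the table also gives signal for XEN cells, a stem cell line of the PrE grown without LIF. In the knockdown experiment the cassette cells received a pool of Oct4 siRNAs or a non-targeting pool together with Dox and were collected at 48 h. The series itself holds 18 MNase-seq libraries, 3 for each of the 6 groups, and no column of the table used here carries their values, so nucleosome signal at these regions was not analysed here.

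The table gives 1 value per region, factor and time point, pooled by the authors over replicates, without counts. Library depth is therefore unknown here, no spread between replicates can be given, and a weaker signal in every cell cannot be told apart from binding in fewer cells. ChIP-seq signal is given below as the ratio to input at the same time point, and ATAC-seq signal, from fragments under 100 bp, as library-size-normalised reads per kb of region. Regions in 3 other Early, SOX17-bound sets serve as comparison: 1923 regions with PTFs from d0 that were moderate or accessible at d0 (open PTF-from-d0 regions), 2899 closed regions that gained PTFs only after Dox (closed ectopic-PTF regions), and 1441 closed regions without PTF peaks (closed no-PTF regions). Differences are members minus set, with 95% intervals widened for 78 such differences; the intervals cover counting error among regions only, and neighbouring regions are not independent.

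The DNA of the closed PTF-from-d0 regions is shown first through the best matches to the GATA6 motif, since 956 of the 978 regions held at least 1 match. Sequences are from GRCm38 (mm10), read 5′ to 3′ on the named strand, that of the GATA6 motif, with 10 flanking bases on each side, and capitals mark the best motif of the region. Regions are named after the protein-coding gene with the nearest start, with no claim that they act on it. The 5 highest scores were these.
4930432M17Rik (chr3:121617200-121617232, minus strand): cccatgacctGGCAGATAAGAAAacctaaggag
Nmnat3 (chr9:98164625-98164657, plus strand): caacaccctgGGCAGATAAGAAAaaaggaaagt
Xkr4 (chr1:3072643-3072675, minus strand): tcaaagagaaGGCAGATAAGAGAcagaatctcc
Ihh (chr1:75027658-75027690, minus strand): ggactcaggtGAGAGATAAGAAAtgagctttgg
Tnfaip3 (chr10:19157959-19157991, minus strand): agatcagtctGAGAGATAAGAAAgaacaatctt
All 5 carried AGATAAG, the core that GATA factors prefer, followed by A. The summits of the 4930432M17Rik and Nmnat3 regions lay between genes, that of the Ihh region in an intron of Nhej1, that of the Tnfaip3 region in an intron of a non-coding gene, and that of the Xkr4 region 617 bp from the start of the non-coding gene 4933401J01Rik.

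Close pairs of motifs were rare, and the 5 closest pairs of a GATA6 and an OCT4:SOX2 motif, among regions in which both scores reached the median of the members, show how the sites sit beside each other. Capitals mark both best motifs, which overlap in the first 2.
Akap11 (chr14:78511693-78511735, minus strand): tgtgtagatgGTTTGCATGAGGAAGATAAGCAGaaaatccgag
Grm8 (chr6:27529479-27529521, minus strand): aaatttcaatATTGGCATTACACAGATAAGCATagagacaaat
Nptx2 (chr5:144652491-144652539, minus strand): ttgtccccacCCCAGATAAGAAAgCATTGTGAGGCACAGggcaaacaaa
Wwtr1 (chr3:57502740-57502789, minus strand): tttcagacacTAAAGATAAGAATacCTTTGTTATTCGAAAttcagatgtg
Tmem232 (chr17:65451040-65451089, plus strand): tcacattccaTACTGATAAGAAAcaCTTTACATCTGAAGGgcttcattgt
The motif centres lay 9 bp apart in the Akap11 and Grm8 regions, 15 bp in the Nptx2 region and 16 bp in the Wwtr1 and Tmem232 regions. In the Nptx2, Wwtr1 and Tmem232 regions the OCT4:SOX2 motif came after the GATA6 motif, with 1 base between them in the first and 2 in the others. The summits of the Grm8, Wwtr1 and Tmem232 regions lay in introns of those genes, that of the Akap11 region in an exon of Akap11, and that of the Nptx2 region between genes.

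For the pairs of GATA6 and SOX17 motifs 4 of the 5 closest are shown, because SOX17 arrived at every one of these regions. Capitals mark both motifs, which run into each other in the Aqp8 region.
Aqp8 (chr7:123444022-123444063, minus strand): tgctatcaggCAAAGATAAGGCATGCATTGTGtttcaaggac
Rbms1 (chr2:60894726-60894768, plus strand): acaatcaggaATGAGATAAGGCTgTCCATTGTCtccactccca
Adamts6 (chr13:104384472-104384515, plus strand): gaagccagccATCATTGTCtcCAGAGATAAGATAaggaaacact
Ube2dnl2 (chrX:114955132-114955178, plus strand): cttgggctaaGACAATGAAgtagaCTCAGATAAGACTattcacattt
The SOX17 motif ran as ATTGT, or as its reverse complement ACAAT, in all 4. The summits of the Rbms1 and Adamts6 regions were intronic in those genes, and those of the Aqp8 and Ube2dnl2 regions intergenic.

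The next set shows the strongest OCT4:SOX2 motifs among regions whose GATA6 binding was lowered after Oct4 knockdown, with that motif in capitals and the strand set by it.
Pdzrn3 (chr6:101735265-101735299, minus strand): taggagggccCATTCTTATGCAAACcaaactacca
Pfkp (chr13:7110698-7110732, plus strand): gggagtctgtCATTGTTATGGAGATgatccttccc
Ttc23l (chr15:10530987-10531021, plus strand): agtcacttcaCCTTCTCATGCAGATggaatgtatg
Tmx4 (chr2:134659068-134659102, plus strand): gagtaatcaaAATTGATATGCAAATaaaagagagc
Dusp6 (chr10:99451463-99451497, plus strand): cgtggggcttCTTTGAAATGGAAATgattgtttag
The Pdzrn3, Tmx4 and Ttc23l matches contain the ATGCA of the classical OCT4 octamer. Of these 5 regions, the summit of the Ttc23l region was intronic in Ttc23l and the others were intergenic.

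For genes of the PrE, the 201 bases around the GATA6 summit (where its signal peaks) of the regions nearest to Cubn and Lrp2 are given on the plus strand, with the best GATA6 motif in capitals. Cubilin and megalin, their products, are the paired endocytic receptors of visceral endoderm.
Cubn (chr2:13489549-13489749, plus strand): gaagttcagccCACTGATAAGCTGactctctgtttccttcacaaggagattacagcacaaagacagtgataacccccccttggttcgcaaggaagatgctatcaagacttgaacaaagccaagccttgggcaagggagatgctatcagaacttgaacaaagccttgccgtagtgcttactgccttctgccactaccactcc
Lrp2 (chr2:69582891-69583091, plus strand): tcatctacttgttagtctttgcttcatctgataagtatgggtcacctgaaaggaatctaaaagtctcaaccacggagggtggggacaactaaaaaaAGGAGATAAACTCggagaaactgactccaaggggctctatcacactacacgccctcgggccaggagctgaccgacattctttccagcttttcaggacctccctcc
Each window holds GATAA once more outside the capitals, on the same strand.

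The closed PTF-from-d0 regions were wide and mostly intronic or intergenic. Their median width was 1092 bp (284 to 4145 bp), near the 1094 bp of open PTF-from-d0 regions and above the 824 bp of closed ectopic-PTF, the 580 bp of closed no-PTF and the 525 bp of all regions. Summits mark where GATA6 signal peaks within a region. In 49 regions (5.01%) a transcript began no more than 1 kb from the summit, and the remaining summits were exonic (3.07%), intronic (44.4%) or intergenic (47.5%). Promoter positions were commoner in all regions (12.4%) and in open PTF-from-d0 regions, at 14.0% (difference -8.98 percentage points, interval -12.5 to -5.12), whereas the differences from closed ectopic-PTF regions (-1.47, -4.05 to 1.79) and closed no-PTF regions (-2.42, -5.73 to 1.17) did not exclude 0. The median distance to a transcript start was 12412 bp, against 6944 bp in open PTF-from-d0, 10995 bp in closed ectopic-PTF, 10070 bp in closed no-PTF and 8796 bp in all regions. Of the members 69 (7.06%) had another member within 10 kb, and the shares within their own sets, which depend on the size of the set, were 14.7% for open PTF-from-d0, 11.9% for closed ectopic-PTF and 5.27% for closed no-PTF regions.

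In ES cells the accessibility of these regions was low without being absent. The median ATAC-seq signal at d0 was 0.155 normalised reads per kb, and the values ran from 0.0319 to 0.526. Across all 26003 closed regions the median was 0.0974, and in the moderate regions of the same GATA6, PTF and SOX17 classes it was 0.338, with a range of 0.126 to 0.896. The class borders therefore overlapped on this scale, and 362 members (37.0%) lay above the 5th percentile of those moderate regions. Before division by width the lowest values belonged to the Mup5, Mup20 and Cers6 regions, at 0.0319, 0.0404 and 0.068 per kb, and the highest to the Gna12, Scube2 and Cited2 regions, at 0.367, 0.410 and 0.296 per kb. The Mup5 and Mup20 regions lie in the cluster of major urinary protein genes, a near-identical family in which reads are hard to place.

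GATA6 signal was strongest at the first time point. The median ratio to input was 12.1 at 8 h, 8.98 at 16 h, 8.83 at 24 h, 7.52 at 48 h and 6.3 at 96 h, and 5.38 in XEN cells. By this ratio the highest of the 5 Dox time points was 8 h in 508 regions (51.9%), and at 96 h the ratio was a median of 0.535 times that at 8 h. It was also 8 h in 56.9% of open PTF-from-d0, 11.9% of closed ectopic-PTF, 16.3% of closed no-PTF and 36.1% of all regions. At 8 h open PTF-from-d0 regions stood at 8.80, closed ectopic-PTF regions at 4.27, closed no-PTF regions at 4.00 and all regions at 3.95. Without division by input the closed and open PTF-from-d0 regions were nearly level at 8 h, at 7.98 and 7.91 normalised reads per kb, while the input was 0.683 per kb in the closed and 0.951 in the open ones, and both stood above closed ectopic-PTF regions at 2.64. Undivided GATA6 in the closed PTF-from-d0 regions was then 7.65 at 16 h, 6.29 at 24 h, 5.63 at 48 h and 4.58 at 96 h. The step from 8 to 16 h was thus smaller than in the ratio, with an input of 0.857 per kb at 16 h. Closed ectopic-PTF regions instead had more GATA6 late, with a median 96 h to 8 h ratio of 1.61.

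**Figure D1:**
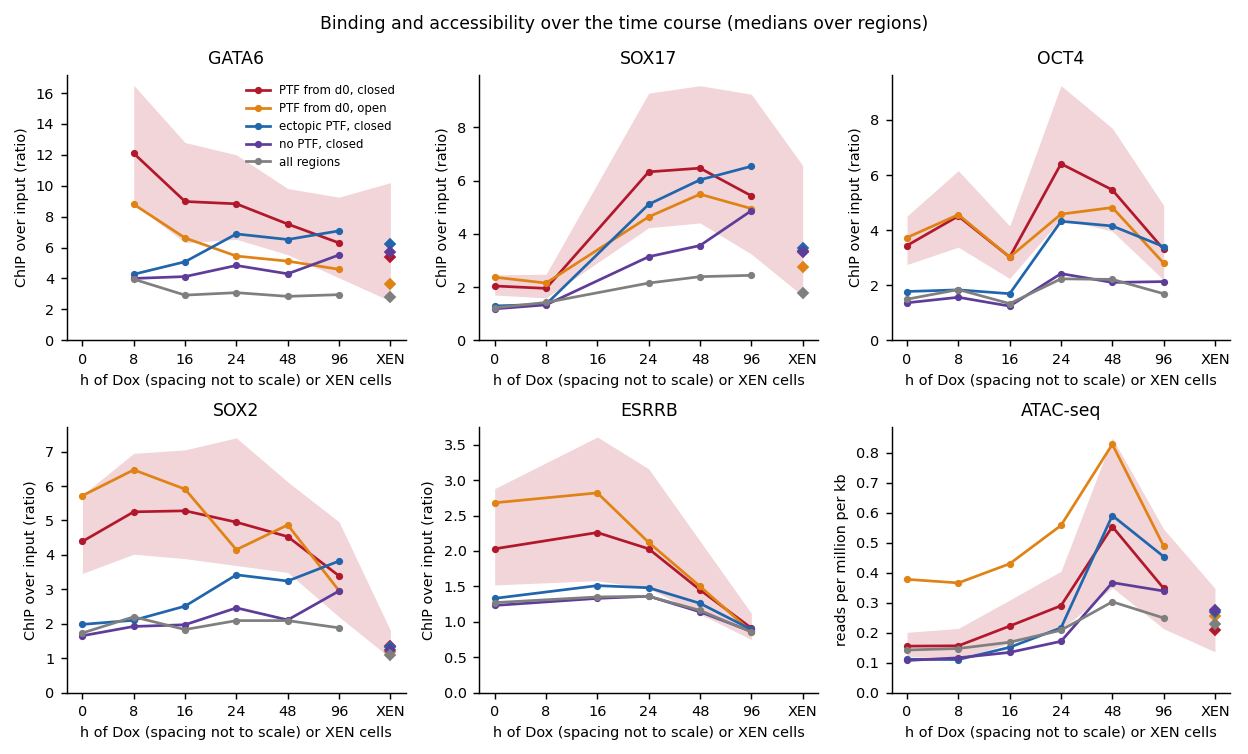
Median ratio of ChIP to input for GATA6, SOX17, OCT4, SOX2 and ESRRB, and median ATAC-seq normalised reads per kb, at each time of Dox (h, spacing not to scale; diamonds are XEN cells) in the 4 Early, SOX17-bound sets and in all regions, with the shaded band giving the lower and upper quartile of the closed PTF-from-d0 regions (red). In those regions GATA6 is highest at 8 h (12.1), OCT4 at 24 h (6.41) and ATAC-seq at 48 h (0.554).

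SOX17 signal came up between 8 and 24 h. Its median ratio was 2.04 at 0 h and 1.95 at 8 h, then 6.33 at 24 h, 6.47 at 48 h, 5.43 at 96 h and 3.35 in XEN cells. The 24 h value was above the 0 h value in 973 of 978 regions, with a median ratio of 3.04. It was above in 93% of open PTF-from-d0, 99.6% of closed ectopic-PTF, 96.3% of closed no-PTF and 78.5% of all regions. In open PTF-from-d0 regions the median ratio of 24 h to 0 h was 1.91 and in closed ectopic-PTF regions 4.00. The highest SOX17 time point was 24 h in 33.3%, 48 h in 32.0% and 96 h in 34.4% of members. Over all regions these shares were 19.8%, 25.9% and 40%.

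OCT4 signal was higher a day into Dox than before it, and SOX2 signal at 24 h differed less from its 0 h level. OCT4 stood at a median ratio of 3.44 at 0 h, 4.51 at 8 h, 3.02 at 16 h, 6.41 at 24 h, 5.46 at 48 h and 3.30 at 96 h. Its 24 h value exceeded the 0 h value in 923 regions (94.4%), with a median ratio of 1.79. That ratio was 1.77 in closed no-PTF regions, 1.18 in open PTF-from-d0 regions, 2.44 in closed ectopic-PTF regions and 1.35 in all regions. The 24 h value exceeded the 0 h value in 90.4%, 69%, 98.6% and 70.3% of them. Without division by input OCT4 was also highest at 24 h, at 4.48 normalised reads per kb against 2.40 at 0 h. At 16 h and 96 h the undivided signal was 2.5 and 2.52, slightly above 0 h, where the ratios lay below it. SOX2 stood at 4.39, 5.25, 5.28, 4.95, 4.53 and 3.39 from 0 to 96 h, and was at 1.34 in XEN cells, a median of 0.303 times the 0 h value. Without division by input SOX2 was highest at 16 h, at 4.32 normalised reads per kb. It was 3.04 at 0 h, 3.57 at 24 h and 2.49 at 96 h. In open PTF-from-d0 regions SOX2 at 24 h was a median of 0.726 times its 0 h value, against 1.15 times in the closed ones. ESRRB, an orphan nuclear receptor of naive pluripotency, had the lowest ratios of the 3, at 2.03 at 0 h, 2.26 at 16 h, 2.03 at 24 h, 1.45 at 48 h and 0.911 at 96 h, where a ratio of 1 is the input level. The 3 factors were profiled with different antibodies, so their ratios do not rank the factors by binding.

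Accessibility was higher at 48 h than at d0 in nearly all of the regions. Median ATAC-seq signal was 0.155 at 0 h, 0.156 at 8 h, 0.222 at 16 h, 0.290 at 24 h, 0.554 at 48 h and 0.348 at 96 h, and 0.210 in XEN cells. Thus at 8 h, when GATA6 signal was highest, the median ratio to d0 was 1.01, and at 48 h it was 3.61, with 967 of 978 regions above 1. At 48 h the ratio also exceeded 1 in 93.6% of open PTF-from-d0, 99.9% of closed ectopic-PTF, 98.3% of closed no-PTF and 79.9% of all regions. The 48 h value was the highest in 863 regions (88.2%). That share was 81.2% in open PTF-from-d0, 80.3% in closed ectopic-PTF, 56.7% in closed no-PTF and 45% in all regions. All regions together moved from 0.142 to 0.303 over the same 48 h and closed ectopic-PTF regions from 0.111 to 0.591. Closed no-PTF regions moved from 0.107 to 0.367 and open PTF-from-d0 regions from 0.378 to 0.829. The median ratio of 48 h to d0 was 3.36 in closed no-PTF, 5.35 in closed ectopic-PTF, 2.09 in open PTF-from-d0 and 1.91 in all regions. At 96 h the closed PTF-from-d0 regions held a median of 0.632 times their 48 h signal and were below it in all but 70 regions (7.16%). More signal at 96 h than at 48 h was found in 5.41% of open PTF-from-d0, 19.3% of closed ectopic-PTF, 41.6% of closed no-PTF and 34.2% of all regions.

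In ES cells few of the closed PTF-from-d0 regions looked like active enhancers, as in the other closed sets. The authors clustered all regions into 7 histone states from public ES cell data, and by their names 379 members (38.8%) were naive, 258 (26.4%) primed enhancers, 204 (20.9%) facultative heterochromatin and 83 (8.49%) constitutive heterochromatin. A further 41 (4.19%) were poised enhancers and 13 (1.33%) active enhancers, and no member was in the promoter state, which allows a share of up to 0.391%. Open PTF-from-d0 regions held 43.0% active enhancers (difference -41.6 percentage points, -45.6 to -37.4), 12.2% promoters (-12.2, -15.0 to -9.61) and 1.77% naive regions (37.0, 31.7 to 42.5). Active enhancers made up 0.586% of closed ectopic-PTF, 0.555% of closed no-PTF and 11.2% of all regions. Naive regions made up 42%, 33.3% and 18%. For both states the differences from the other closed sets did not exclude 0. The share of primed enhancers did not differ between closed and open PTF-from-d0 regions beyond the interval (0.483, -5.26 to 6.51), and the closed ones held more of them than closed ectopic-PTF regions did (10.0, 4.85 to 15.5). Facultative heterochromatin was rarer than in closed ectopic-PTF regions (-7.53, -12.6 to -2.02) and in closed no-PTF regions (-11.7, -17.6 to -5.43). The excess of primed enhancers over closed no-PTF regions (10.7, 4.96 to 16.6) was lost when regions of like width were compared (2.57, -4.92 to 10.1).

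**Figure D2:**
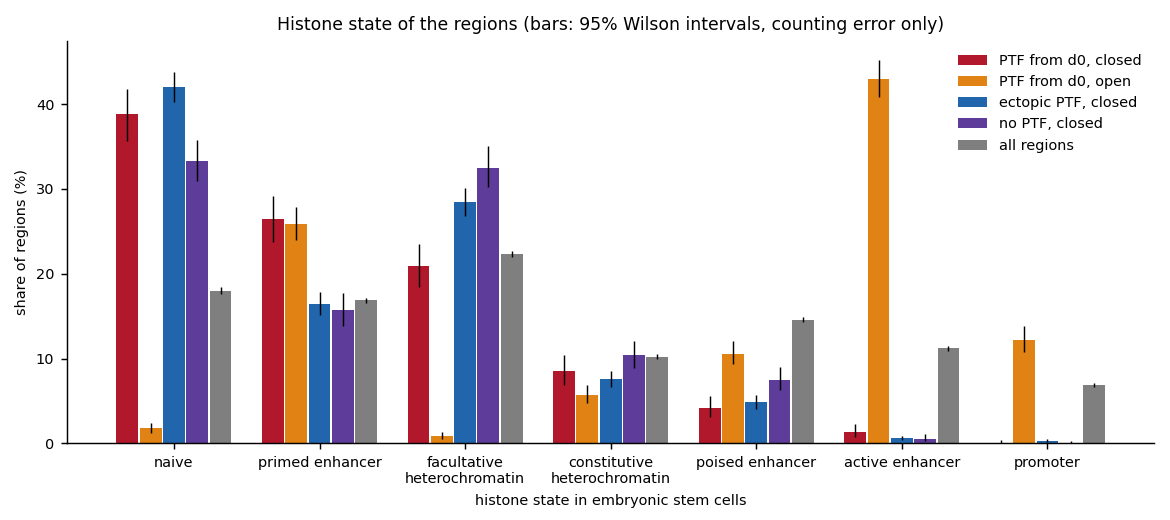
Share of regions (%) in each of 7 histone states of ES cells for the 4 Early, SOX17-bound sets and for all regions, with 95% Wilson intervals that cover counting error among regions only. Closed PTF-from-d0 regions (red) are mostly naive (38.8%), primed enhancers (26.4%) or facultative heterochromatin (20.9%), and 1.33% are active enhancers, against 43.0% of open PTF-from-d0 regions (orange). The closed ectopic-PTF and closed no-PTF regions hold 0.586% and 0.555% active enhancers.

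Single marks, the measurements behind the states, gave the sizes of these differences. On the log2 scale H3K27ac, a mark of active enhancers, was 2.60 lower in closed than in open PTF-from-d0 regions (difference -2.60, interval -2.76 to -2.44), H3K4me3, a mark of promoters, 2.19 lower (-2.19, -2.35 to -2.02), H3K9ac 1.71 lower (-1.71, -1.85 to -1.58) and H3K4me1, a mark of enhancers in general, 1.25 lower (-1.25, -1.38 to -1.12). Against closed ectopic-PTF regions, H3K4me1 was 0.29 higher (0.16 to 0.43) and the Polycomb mark H3K27me3 lower by 0.21 (-0.21, -0.31 to -0.11). H3K27me3 was also lower than in closed no-PTF regions (-0.29, -0.40 to -0.19), and higher than in open PTF-from-d0 regions (0.15, 0.05 to 0.26). H3K9me3 differed by -0.09 from open PTF-from-d0 (-0.16 to -0.01), by -0.05 from closed ectopic-PTF (-0.12 to 0.02) and by -0.12 from closed no-PTF regions (-0.20 to -0.04), the last being 0.09 in like widths (-0.02 to 0.20). The 83 members named constitutive heterochromatin had a median H3K9me3 of 1.18 before taking logs, against 0.522 in all members. Their median H3K27ac, 1.11, was also above that of all members (0.569) and of primed enhancers (0.84).

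Among the members the naive regions had the lowest median accessibility at d0 and the highest median OCT4 ratio at 24 h. Their median ATAC-seq signal was 0.125 at d0 and 0.470 at 48 h, against 0.183 and 0.633 in primed enhancers and 0.181 and 0.737 in facultative heterochromatin. OCT4 at 24 h had a median ratio of 8.33 in naive regions, 7.50 in constitutive heterochromatin, 5.26 in primed enhancers, 5.31 in facultative heterochromatin and 3.64 in poised enhancers. At 0 h and 48 h naive regions (3.81 and 6.1) and constitutive heterochromatin (3.84 and 6.44) were close in OCT4, and at 48 h the 13 active enhancers had the lowest ATAC-seq signal, at 0.405. GATA6 at 8 h differed less, at 13.3 in naive regions, 13 in facultative heterochromatin, 11.0 in primed enhancers and 10.0 in constitutive heterochromatin. The best OCT4:SOX2 motif scored a mean of 9.93 (SD 2.57, n = 360) in naive regions, 9.55 (SD 2.68, n = 241) in primed enhancers and 9.13 (SD 2.44, n = 188) in facultative heterochromatin, where n is the number of regions with a match.

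Taken motif by motif, the closed PTF-from-d0 regions had higher mean GATA6 scores than the open ones and higher mean OCT4:SOX2 scores than the other closed sets. Their best GATA6 motifs had a mean score of 11.6 (SD 2.24), a log-odds match in which higher is closer to the consensus, against 10.5 in open PTF-from-d0, 11.1 in closed ectopic-PTF and 11.4 in closed no-PTF regions. The difference was 1.10 from open PTF-from-d0 regions (0.79 to 1.41) and 0.51 from closed ectopic-PTF regions (0.23 to 0.80), the latter lost among regions of like width (0.17, -0.11 to 0.46), and from closed no-PTF regions it did not exclude 0 (0.17, -0.14 to 0.49). The word GATAAG, read on the strand of the motif, stood in the best GATA6 match of 69.8% of the members, in 50.2% of open PTF-from-d0, 61.9% of closed ectopic-PTF and 70.3% of closed no-PTF regions, and in 52.0% of all regions with a match, while GATAA, which GATAAG contains, stood in 88.7% of the members and 76.2% of all. In 420 members (42.9%) the summit and the best GATA6 motif were no more than 50 bp apart, more often than in open PTF-from-d0 regions (32.4%, difference 10.5 percentage points, 4.07 to 17.0) and less often than in the narrower closed no-PTF regions (58.4%, -15.4, -22.3 to -8.36), a difference that was lost in like widths (-8.52, -17.6 to 0.513).

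OCT4:SOX2 motifs were stronger than in the other closed sets, and their frequency did not differ from the open set beyond the interval. A match was present in 92.9% of the members and 92.8% of open PTF-from-d0 regions (difference 0.121, -3.65 to 3.37), and in 85.1% of closed ectopic-PTF (7.81, 3.87 to 11.1) and 72.6% of closed no-PTF regions (20.4, 15.3 to 25.1). The difference from closed ectopic-PTF regions no longer excluded 0 among regions of like width (3.18, -0.463 to 6.82). Among regions with a match the best score averaged 9.58 (SD 2.62), which was 1.06 above closed ectopic-PTF regions (0.72 to 1.39), 1.58 above closed no-PTF regions (1.20 to 1.95) and -0.32 from open PTF-from-d0 regions (-0.70 to 0.07). Since a wide region holds more matches by its length alone, the 201 bases around the summit were also scanned, and there 48.1% of the members held an OCT4:SOX2 match, against 49.6% of open PTF-from-d0, 37.1% of closed ectopic-PTF and 33.7% of closed no-PTF regions.

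The SOX17 and ESRRB motifs were each commoner than in closed no-PTF regions, and near the summit the sets were closer. A SOX17 match was present in 90.1% of the members and 77.0% of closed no-PTF regions (13.1, 7.88 to 17.9), a difference lost in like widths (5.24, -1.15 to 11.6). Within 100 bp of the summit it was present in 52.8% of the members, against 54.3%, 50.8% and 51.8% near the summit in the open PTF-from-d0, closed ectopic-PTF and closed no-PTF regions. An ESRRB match was present in 60.2%, against 45.5% of closed ectopic-PTF regions (14.7, 8.44 to 20.8), a difference lost in like widths (6.08, -0.21 to 12.4), and 34.6% of closed no-PTF regions (25.6, 18.6 to 32.2), a difference that still excluded 0 in like widths (9.61, 0.69 to 18.5). Near the summit the ESRRB shares were 16.5% in the members, 13% in closed ectopic-PTF and 12.3% in closed no-PTF regions. Within 201 bases of sequence, 873 members (89.3%) held a GATA6 match, 420 (42.9%) held both a GATA6 and an OCT4:SOX2 match, 224 (22.9%) held GATA6, SOX17 and OCT4:SOX2 matches together, and 15 held none of the 4. Best motifs of GATA6 and OCT4:SOX2 were within 20 bp of each other, centre to centre, in 38 of 893 members (4.26%) and those of GATA6 and SOX17 in 39 of 864 (4.51%), and neither share differed from any of the 3 sets beyond the interval. The pairs printed above are therefore not the common arrangement.

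**Figure D3:**
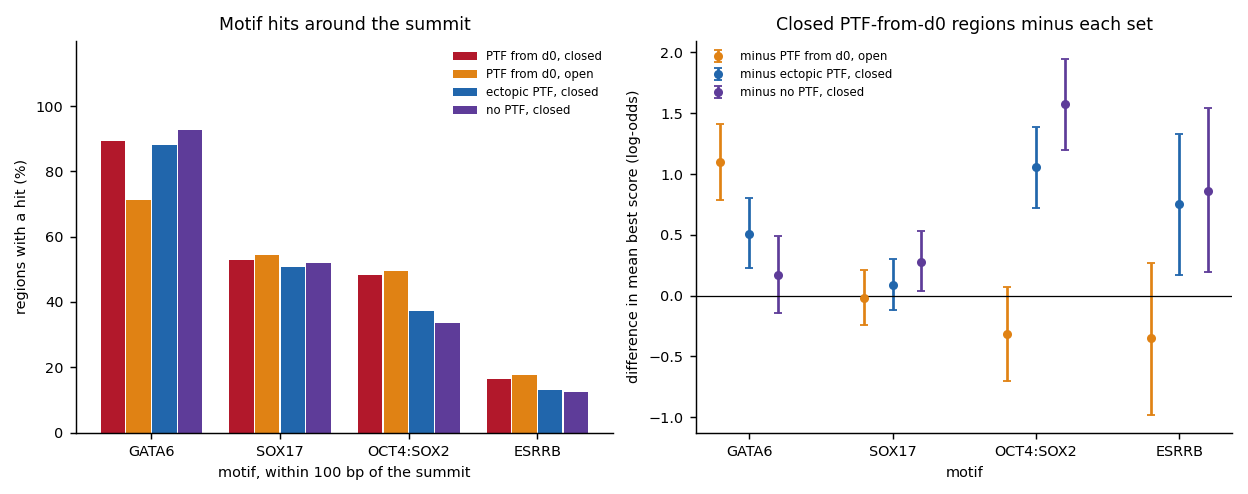
Left, share of regions (%) with at least 1 match of each motif within 100 bp of the GATA6 summit in the 4 Early, SOX17-bound sets. Right, difference in the mean score of the best motif (log-odds), closed PTF-from-d0 regions minus each set, with intervals widened for 78 differences, in which the OCT4:SOX2 score lies above both other closed sets (1.06 and 1.58) and the GATA6 score above the open set (1.10).

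After Oct4 knockdown GATA6 binding was lowered at a larger share of these regions than of the other sets. The authors classed GATA6 binding at 48 h of Dox as lowered or raised at a false discovery rate under 0.1 and an absolute log2 fold change over 0.5. Of the 978 members 221 (22.6%) were lowered, against 6.25% of all 42403 regions. The share was 16.4% in open PTF-from-d0 regions (difference 6.16 percentage points, 0.931 to 11.7), 12.4% in closed ectopic-PTF regions (10.2, 5.39 to 15.4) and 2.64% in closed no-PTF regions (20.0, 15.3 to 25). Raised binding was seen in 34 members (3.48%), against 8.57% of all regions, 6.34% of open PTF-from-d0 (-2.87, -5.52 to 0.218), 9.56% of closed ectopic-PTF (-6.08, -8.61 to -2.96) and 17.6% of closed no-PTF regions (-14.1, -18.1 to -9.98). The control GATA6 signal, on which the power of such a call depends, also differed, with medians of 11.9 normalised reads in the members and 7.86, 8.64 and 3.64 in the sets. Among regions of like control signal the excess over closed ectopic-PTF regions was 10.5 (5.44 to 15.6), and that over open PTF-from-d0 regions no longer excluded 0 (4.31, -1.22 to 9.84).

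The size of the change was moderate. The median log2 ratio of knockdown to control GATA6 signal was -0.23 in the members, with quartiles of -0.54 and 0.09, against -0.12 in open PTF-from-d0, -0.03 in closed ectopic-PTF and 0.27 in closed no-PTF regions. GATA6 was lower after knockdown in 665 members (68.0%). It was lower in 60.2% of open PTF-from-d0, 51.9% of closed ectopic-PTF, 30.7% of closed no-PTF and 50.2% of all regions. In the 221 lowered members the signal went from a median of 11.7 to 6.63 normalised reads, in the 34 raised members from 9.40 to 15.8, and in the 723 others from 12.3 to 11.3. SOX17 signal was higher over the whole table in the knockdown, by a median log2 ratio of 0.64 over all regions. The SOX17 log2 ratio itself was 0.47 in the members, -0.01 in those with lowered GATA6 and 1.35 in those with raised GATA6. Relative to the shift over all regions SOX17 stood at -0.17 in the members, at -0.65 in the members with lowered GATA6 and at 0.71 in those with raised GATA6. The cause of that shift was not tested. Across the 978 members the log2 ratios of the 2 factors had a Spearman rho of 0.78, given as a description. Both factors were profiled at 48 h of the same knockdown design, and whether they share siRNA transfections is not stated.

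**Figure D4:**
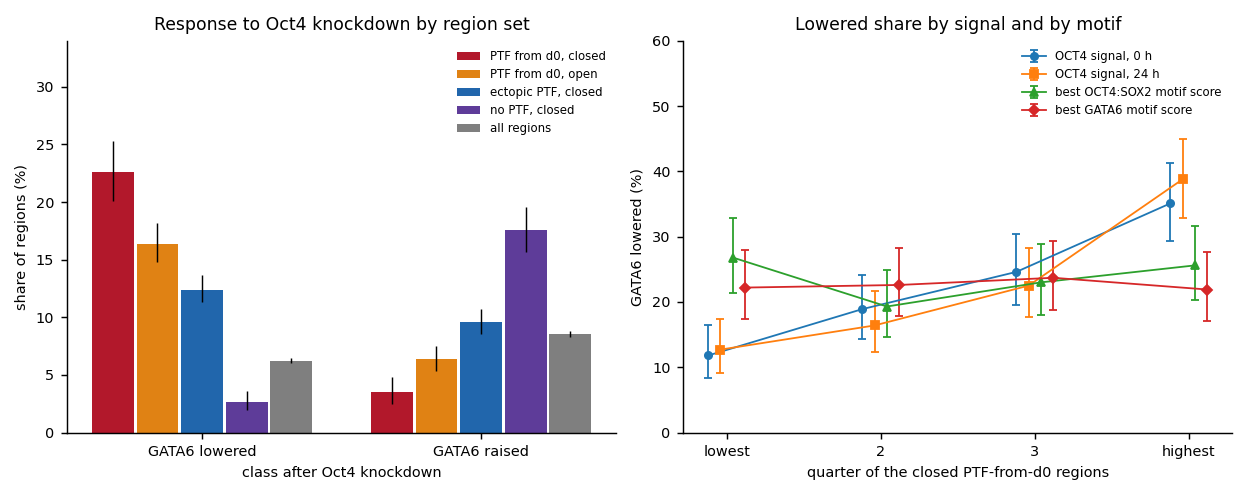
Left, share of regions (%) whose GATA6 binding at 48 h was lowered or raised after Oct4 knockdown in the 4 Early, SOX17-bound sets and in all regions; right, lowered share (%) of the closed PTF-from-d0 regions in 4 equal groups ordered by OCT4 signal at 0 h or 24 h or by the best OCT4:SOX2 or GATA6 motif score, all bars being 95% Wilson intervals. The lowered share is 22.6% in the closed PTF-from-d0 regions and climbs from 11.8% to 35.1% with OCT4 signal at 0 h. It is 26.8% and 25.6% at the ends of the OCT4:SOX2 motif order, and motif orders hold only regions with a match.

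The lowered share was higher among members with more OCT4 signal. When the members were put in 4 equal groups by OCT4 signal at 0 h, the lowered share was 11.8% (95% Wilson interval 8.37 to 16.5), 18.9% (14.4 to 24.2), 24.6% (19.6 to 30.4) and 35.1% (29.4 to 41.3) from the lowest to the highest. By OCT4 at 24 h the shares were 12.7%, 16.4%, 22.5% and 38.8%. The order held without division by input, at 13.9%, 18.4%, 23.4% and 34.7% for OCT4 at 0 h. By SOX2 signal at 0 h the shares were 20.8%, 20.1%, 28.3% and 21.2%. By region width, from narrowest to widest, they were 20.4%, 26.2%, 29.9% and 13.9%. Whether the order by OCT4 holds among members of like width was not tested. By the score of the best OCT4:SOX2 motif they were 26.8%, 19.3%, 23.0% and 25.6%, and by the GATA6 motif 22.2%, 22.6%, 23.7% and 21.9%. These motif orders hold only members with a match, 909 for OCT4:SOX2 and 956 for GATA6. An OCT4:SOX2 match anywhere in the region was present in 97.3% of lowered members (94.2 to 98.7). In members without a call it was 91.6% (89.3 to 93.4), and in raised members 94.1% (80.9 to 98.4). Near the summit, too, the OCT4:SOX2 motif was commoner in lowered members, while its score showed no such order. The 201 bases around the summit held a match in 132 of 221 lowered members (59.7%, 53.1 to 66.0). The same held for 324 of 723 members without a call (44.8%, 41.2 to 48.5) and 14 of 34 raised members (41.2%, 26.4 to 57.8). SOX17 matches near the summit went the other way, at 42.1% (35.8 to 48.7), 54.9% (51.3 to 58.5) and 76.5% (60 to 87.6).

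The lowered members also had less GATA6 late in the time course. Their median GATA6 ratio went from 13.7 at 8 h to 4.15 at 96 h, whereas members without a call went from 11.8 to 7.03 and raised members from 8.90 to 8.02. ATAC-seq signal in XEN cells was 0.138 in lowered, 0.244 in uncalled and 0.346 in raised members, while at d0 it was 0.149, 0.157 and 0.155. Lowered binding was spread over the chromatin states, at 25.1% of naive regions (21 to 29.7), 25.5% of facultative heterochromatin (20.0 to 31.9), 25.3% of constitutive heterochromatin (17.2 to 35.6), 18.2% of primed enhancers (14.0 to 23.4) and 12.2% of poised enhancers (5.32 to 25.5).

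Members lay near genes of the PrE and, for fewer genes, of pluripotency. Of 36 PrE genes 17 had a member within 100 kb of their start, against 8 with an open PTF-from-d0, 24 with a closed ectopic-PTF and 12 with a closed no-PTF region. Of 35 pluripotency genes 5 had a member, 24 an open PTF-from-d0, 16 a closed ectopic-PTF and 2 a closed no-PTF region. Of 22 genes of FGF and MAPK signalling 3 had a member, 11 an open PTF-from-d0, 7 a closed ectopic-PTF and 7 a closed no-PTF region. Every gene of the 3 lists had some GATA6 region within 100 kb. The sets differ in size and the genes were chosen with earlier results of these data known, so the counts are a description.

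Among the receptors of the PrE, the Cubn region (chr2:13488626-13490208, intron of Cubn, 2164 bp from its start) was naive in ES cells and its GATA6 ratio was 14.7, 10.3, 9.69, 11.1 and 9.76 from 8 to 96 h and 15.4 in XEN cells. Its ATAC-seq signal went from 0.232 at d0 to 1.06 at 48 h, and Oct4 knockdown left it without a call (log2 ratio 0.08). The Lrp2 region (chr2:69581950-69583490, intron of Lrp2, facultative heterochromatin) began at 17.5 and was at 10.1 at 96 h. The Pdgfra region (chr5:75145915-75148017, 5625 bp upstream of the gene for the PDGF receptor alpha and 1 of 4 members within 100 kb of it) stood at 18.5, 18.9, 11.7, 12.5 and 3.92 from 8 to 96 h. Its OCT4 ratio was 7.31 at 0 h and 13 and 14.2 at 24 and 48 h, and it was lowered by Oct4 knockdown (log2 ratio -0.95). In XEN cells GATA6 was thus high at the Cubn region and low at the Lrp2 and Pdgfra regions, at 2.76 and 2.87.

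Genes of the basement membrane, which PrE cells lay down in bulk, made up the next group. The region nearest to the starts of Col4a1 and Col4a2, which encode collagen IV chains (chr8:11308478-11310403, in an intron of Col4a1 and 3902 bp upstream of Col4a2), was a poised enhancer with GATA6 at 13.6 at 8 h, 7.53 at 96 h and 13.9 in XEN cells. Its ATAC-seq signal went from 0.359 to 2.31 at 48 h, the highest value among the regions named here. The region upstream of the laminin gene Lamc1 (chr1:153354224-153357770) instead had more GATA6 late, at 4.93, 5.91, 5.74, 7.42 and 9.51 from 8 to 96 h and 10.4 in XEN cells. The region upstream of the laminin gene Lamb1 (chr12:31231292-31233219) was weaker, at 7.45 at 8 h and 4.57 at 96 h. P4ha2, a collagen prolyl hydroxylase, had its nearest member at the Pdlim4 promoter 35374 bp away (chr11:54064248-54065333), and that region was lowered by Oct4 knockdown (log2 ratio -0.56).

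The transcription factor gene Gata4 and the signalling gene Dkk1 differed in their response to the knockdown. The Gata4 region (chr14:63264284-63266085, intron of Gata4, facultative heterochromatin) was without a call (log2 ratio -0.08) and held GATA6 at 9.11, 13.3, 8.80, 10.4 and 9.93 from 8 to 96 h and 9.49 in XEN cells, while its OCT4 ratio went from 3 at 0 h to 8.68 at 48 h. The Dkk1 region (chr19:30525925-30528361, intergenic, 22791 bp from the start of that Wnt inhibitor gene) was naive, with GATA6 at 11.5 at 8 h and 6.54 at 96 h and OCT4 at 4.75 at 0 h and 12.8 at 48 h, and it was lowered by the knockdown (log2 ratio -0.86). Lama1, Ctsl, Sox7, Cxcr4, Sox17 and Ihh had their nearest member between 42993 and 76093 bp away.

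At 3 of the 4 pluripotency genes with the nearest members GATA6 was lower at 96 h than at 8 h. This was the common course, as only 179 of the 978 members (18.3%) had more GATA6 at 96 h. That share was 18.8% in open PTF-from-d0, 69.8% in closed ectopic-PTF, 66.7% in closed no-PTF and 44.8% in all regions. The region upstream of Lin28a, an RNA-binding protein (chr4:134022716-134023625, primed enhancer, 4384 bp away), went from 13.2 at 8 h to 2.34 at 96 h, and the region near the nuclear receptor gene Nr5a2 (chr1:136989509-136991015) from 8.00 at 8 h and 11.3 at 24 h to 2.86 at 96 h. The Lin28a region was lowered by Oct4 knockdown (log2 ratio -0.86). The Nanog region (chr6:122751458-122752210, in an intron of Slc2a3, 44325 bp from the Nanog start) had GATA6 at 16.8 at 8 h and 8.96 at 96 h, and its OCT4 ratio was highest at 96 h, at 15.5. The Klf5 region (chr14:99260716-99261687) had no match to the GATA6 motif and still held GATA6 at 7.96 at 8 h and 10.6 at 96 h.

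**Figure D5:**
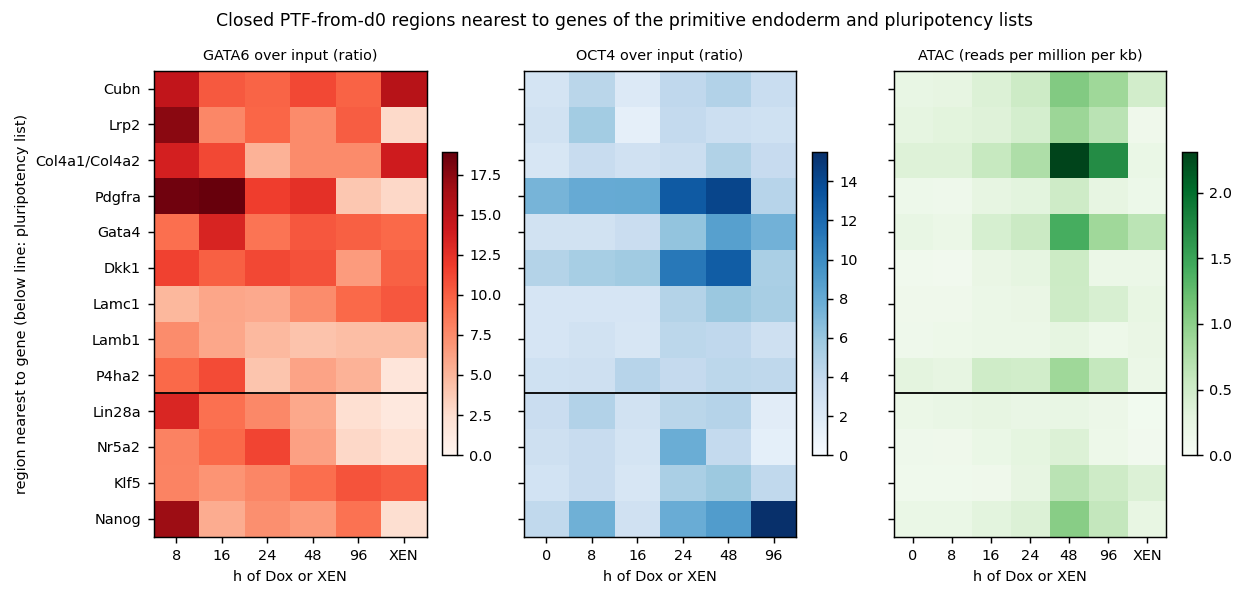
GATA6 and OCT4 ratios to input and ATAC-seq normalised reads per kb (colour scales) by time of Dox (h) and in XEN cells, for the closed PTF-from-d0 region nearest to each of 10 PrE genes (above the line; Col4a1 and Col4a2 share 1 region) and 4 pluripotency genes (below it). The Pdgfra region has the highest GATA6 at 8 h (18.5) and the Col4a1/Col4a2 region the highest ATAC-seq signal at 48 h (2.31).

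In FGF signalling the nearest members belonged to Klb, a co-receptor, Spry4, an inhibitor, and Flrt3, a membrane protein that binds FGF receptors. The Klb region (chr5:65339497-65340704, intergenic, 8091 bp away) and the Flrt3 region (chr2:140747726-140749927, intron of Macrod2, 77368 bp away) both had more GATA6 in XEN cells, at 15.7 and 30.1, than at 8 h, at 8.50 and 8.74. The SOX17 ratio of the Flrt3 region was 2.23 at 0 h and 29.0 at 24 h. The Spry4 region lay 68721 bp upstream of its gene and had GATA6 at 15.6 at 8 h and 16.0 in XEN cells.

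The strong OCT4:SOX2 motifs printed above for lowered members stood in regions with less GATA6 at 96 h than at 8 h, as most members had. GATA6 was at 30.2 at 8 h and 2.15 at 96 h in the Dusp6 region, at 27.4 and 5.48 in the Pdzrn3 region, at 14.8 and 2.53 in the Pfkp region, at 16.7 and 3.28 in the Ttc23l region and at 9.29 and 6.09 in the Tmx4 region. The Dusp6 region, 188198 bp from the gene for that MAPK phosphatase, had an OCT4 ratio of 11.5 at 0 h and 25 at 24 h, and its ATAC-seq signal was 0.193 at 0 h, 0.315 at 24 h and 0.0989 at 96 h. Of the 5 regions with the highest GATA6 motif scores 4 had more GATA6 at 96 h, as the Xkr4 region went from 17.9 at 8 h to 19.2 at 96 h and 29.0 in XEN cells, the 4930432M17Rik region from 8.33 to 12.5, the Ihh region from 9.47 to 12.8 and the Tnfaip3 region from 10.3 to 14.8, while the Nmnat3 region went from 16.5 to 9.04. In the Mup5 region every ratio was high at 24 h, at 47.4 for GATA6, 43.1 for SOX17, 63.8 for OCT4 and 59.1 for SOX2, and these 4 values share 1 input value.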

How the data were processed

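The members, the gene lists and the comparisons were chosen with earlier results of these data known. According to the study's methods and the submitters' processing notes, the authors used bcl2fastq, cutadapt, Bowtie2 (mm10) and SAMtools, ran MACS2 on the merged replicates, keeping peaks that each replicate also had. The deposited signal columns hold reads in the region corrected for library size, with no counts; 48 were used as the authors' pooled values, and 12 that group motifs and 4 whose values were all whole multiples of their lowest value (within 0.01), as a single library could give, were not used. The deposited motif score is a FIMO log-odds score of JASPAR matrices. The lowered and raised classes come from DESeq2 as run by the authors. From these values ratios to input, signal per kb and log2 ratios were computed. No library of the series enters, so no test across libraries could be made.

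Shares were compared by Newcombe intervals and means by the difference ± 3.41 standard errors, for 26 measures in 3 sets, and both were tested on simulated data. Motif positions were checked against GRCm38.p6, where each full-length best motif sequence had 1 score, and the 4 matrices recovered from them, whose hits matched the deposited presence calls for 99.4% to 100% of members, served for the 201 bp windows. Summits were annotated with GENCODE M21. Named regions were, among members, the 5 highest GATA6 motif scores, the 5 closest GATA6 and OCT4:SOX2 pairs and GATA6 and SOX17 pairs with both scores at or above the median, the 5 lowered regions with the highest OCT4:SOX2 scores, the member nearest to each listed gene within 100 kb (up to 10 a list) and the 3 lowest and 3 highest ATAC-seq values at d0. Alternatives were bins of width, leaving out each chromosome, moderate regions only, summits over 1 kb from a start, other motif distances, mean motif scores, and others named in the closing section. The tools were scipy 1.17.1, pandas 2.3.3, numpy 2.4.6, pysam 0.24.0 and matplotlib 3.10.9 under Python 3.11.15. Some named regions are not reported here.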

Additional observations from a re-analysis of the deposited data

How the results depend on the processing

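No paired analysis was possible because no library enters these comparisons and the columns carry no replicate numbers. Of 350 recomputed differences 311 kept their direction and their side of 0, 24 no longer excluded 0, 7 came to exclude it and 8 changed sign, where a change of sign between intervals that both contain 0 was not counted. Bins of control GATA6 signal and the search for any match within 100 bp were chosen after seeing the data. Within 5 bins of width the difference from closed no-PTF regions changed sign for constitutive heterochromatin (from -1.92 to 7.50 percentage points, 2.48 to 12.5), H3K4me1 (from 0.17 to -0.02), H3K9me3 (from -0.12 to 0.09) and the best SOX17 (from 0.28 to -0.11) and ESRRB scores (from 0.86 to -0.48), and lost its call for primed enhancers (2.57), the GATA6 motif near the summit (-8.52) and SOX17 motif presence (5.24). From closed ectopic-PTF regions it lost its call for H3K4me3 (-0.10), the GATA6 score (0.17), OCT4:SOX2 presence (3.18), ESRRB presence (6.08) and the ESRRB score (0.57), and the raised share came to differ from open PTF-from-d0 regions (-2.78). With the mean score of all motifs the GATA6 difference was -0.38 from closed no-PTF and 0.06 from closed ectopic-PTF regions, the SOX17 difference -0.12 from closed no-PTF regions, and the ESRRB differences 0.30 and 0.33 from closed no-PTF and ectopic-PTF regions. With only best motifs within 100 bp of the summit the SOX17 difference from closed no-PTF regions was -9.68, OCT4:SOX2 differed by 4.44 from closed ectopic-PTF and 3.17 from closed no-PTF regions, and ESRRB by 2.63 and 2.81. With any match within 100 bp the values against closed no-PTF regions were -3.38 for GATA6, 0.922 for SOX17 and 4.18 for ESRRB, and ESRRB differed by 3.49 from closed ectopic-PTF regions. The lowered share differed from that of open PTF-from-d0 regions by 4.31 within bins of control signal, and the raised share by -3.28 against moderate regions only. The pair of GATA6 and SOX17 motifs within 50 bp differed by -8.23 and promoters within 2 kb by -4.99 from closed no-PTF regions. H3K27ac differed from closed ectopic-PTF regions by 0.12 away from promoters, where the interval reached 0. Leaving out each chromosome in turn put the raised share against open PTF-from-d0 regions from -3.43 to -2.57, poised enhancers against closed no-PTF regions from -3.58 to -2.9, H3K27ac against closed ectopic-PTF regions from 0.10 to 0.13, H3K4me1 and the SOX17 score against closed no-PTF regions from 0.15 to 0.19 and from 0.25 to 0.32, and SOX17 presence against closed ectopic-PTF regions from 3.63 to 5.25, with an interval that excluded 0 at 1 end of each range and included it at the other. The cause was not tested, except that the narrower windows and the mean score hold fewer or other matches by construction. Within 50 kb, 1 gene of FGF and MAPK signalling had a member. These values are pooled by the authors, so their depth and replicate spread limit every statement to differences among regions.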
